A study of Danio rerio with 19 samples.

Results

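Of 32520 genes in the count table, a group of 37 passed a floor of mean expression in uninjured tail fins. These genes were at least 4 times higher upon injury in WT fish, *yap1* Crispants and *wwtr1* Crispants alike. The genes were chosen by their measured values. Counts were divided by the library total and scaled to 1000000 (CPM). A member had a mean of at least 5 CPM in each of the 3 uninjured groups and an injured over uninjured ratio of at least 4 in each of the 3 genotypes, with injured *yap1* replicate 4 kept out of the ratio. The 100 most abundant genes and 7 further wound and leukocyte genes were set aside by the rule. Of 10038 genes over the floor of 5 CPM, 119 had a ratio of at least 4 in WT, 57 in *yap1* Crispants and 95 in *wwtr1* Crispants. All 3 ratios were met by 38 genes, of which FN1, encoding fibronectin, was dropped as among the 100 most abundant. The 7 genes set aside changed nothing, since 0 of them met both the floor and the ratio. Members are named by the gene table's symbols, some of which are the upper-case names of the human orthologue. The table gives HTRA1, JUNB, THBS3 and TIMP2 to 2 gene IDs each, and only 1 ID of each is a member. For THBS3 it is ENSDARG00000077641 and for TIMP2 ENSDARG00000075261.

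Tail fin tissue of WIK zebrafish was collected at 4 dpf as 19 bulk RNAseq libraries of pooled embryos. Each genotype had 3 uninjured and 3 injured libraries, apart from *yap1* Crispants with 4 injured libraries. Injured fish had received the severe tail fin injury at 3 dpf, 24 h before collection. This injury takes the fin and the tip of the notochord, and injured and uninjured tails were later cut at the same pigment landmark, so the tissue left to sample was not the same. Crispants are the F0 fish that grow from eggs given Cas9 with guide RNAs against *yap1* or *wwtr1*, which encode the Hippo pathway co-regulators Yap1 and Taz, and are mosaic for their mutations. The methods do not say whether the WT embryos sequenced had been injected. The labels call the libraries of a group biological replicates, and each p-value below measures the spread between such pools.

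A severed fin first closes its wound by moving epidermis over the stump, recruits neutrophils and macrophages, and then rebuilds tissue from dividing cells. Secreted and lysosomal proteases, their inhibitors and cross-linking enzymes reshape the matrix at the wound, while AP-1 factors such as the Fos and Jun proteins are among the early regulators of the response. Secretory cells that make much matrix also raise chaperones of the endoplasmic reticulum.

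The targeted genes do not check the labels at the RNA level. *yap1* (ENSDARG00000068401) ranged from 142 to 289 CPM over the 7 libraries of *yap1* Crispants and from 128 to 335 CPM in WT, with overlap. *wwtr1* (ENSDARG00000067719) was low, between 0.495 and 1.36 CPM in WT and *wwtr1* Crispant libraries. In *yap1* Crispants *wwtr1* was at 2.17 to 6.45 CPM uninjured, above all uninjured WT libraries, and at 1.01 to 4.14 CPM injured. Guide-induced mutations need not lower the transcript. The paper reports near-complete loss of each targeted protein by Western blot of pooled larvae, and no substantial change of Taz in *yap1* Crispants. Library totals ran from 28081131 to 80837847 counts. Summed CPM of 14 epidermal markers was between 63131 and 137382 in every library, with no marker of the labelled tissue at 0 in all libraries of a group. Uninjured *yap1* replicate 3 stood apart from the other uninjured libraries in the members and in leukocyte markers, and values of the members in *yap1* Crispants that moved by over 1.5 times without it are given both ways.

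The ratios lay between 4.03 and 45.2, with a median of 7.61 in WT, 5.86 in *yap1* Crispants and 6.49 in *wwtr1* Crispants. The median over all 10038 genes above the floor was 1.12, 1.26 and 1.23 in the same order. Since the rule used these ratios they are a description of the choice, not a test. The smallest of a gene's 3 ratios was in *yap1* Crispants for 22 members, in WT for 9 and in *wwtr1* Crispants for 6, and the largest was in WT for 22. This order rested on uninjured *yap1* replicate 3. Without that library, an alternative chosen after seeing the data, the smallest ratio was in *yap1* Crispants for 12 members, in WT for 9 and in *wwtr1* Crispants for 16, the largest was in WT for 18, and the median ratio in *yap1* Crispants was 7.96. The *yap1* ratio of 6 members then moved by over 1.5 times, from 4.03 to 7.96 for kif20a, 4.61 to 8.63 for LIMA1, 4.58 to 8.47 for STARD10, 5.05 to 8.46 for KPNA2, 4.28 to 7.00 for mgp and 16.99 to 25.6 for sb:cb1058. The genes sb:cb1058, CTSK and ctsl.1 led, each with all 3 ratios over 11. The remaining members formed a continuous run down to the threshold, as the plot of ratios by genotype shows.

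**Figure D1:**
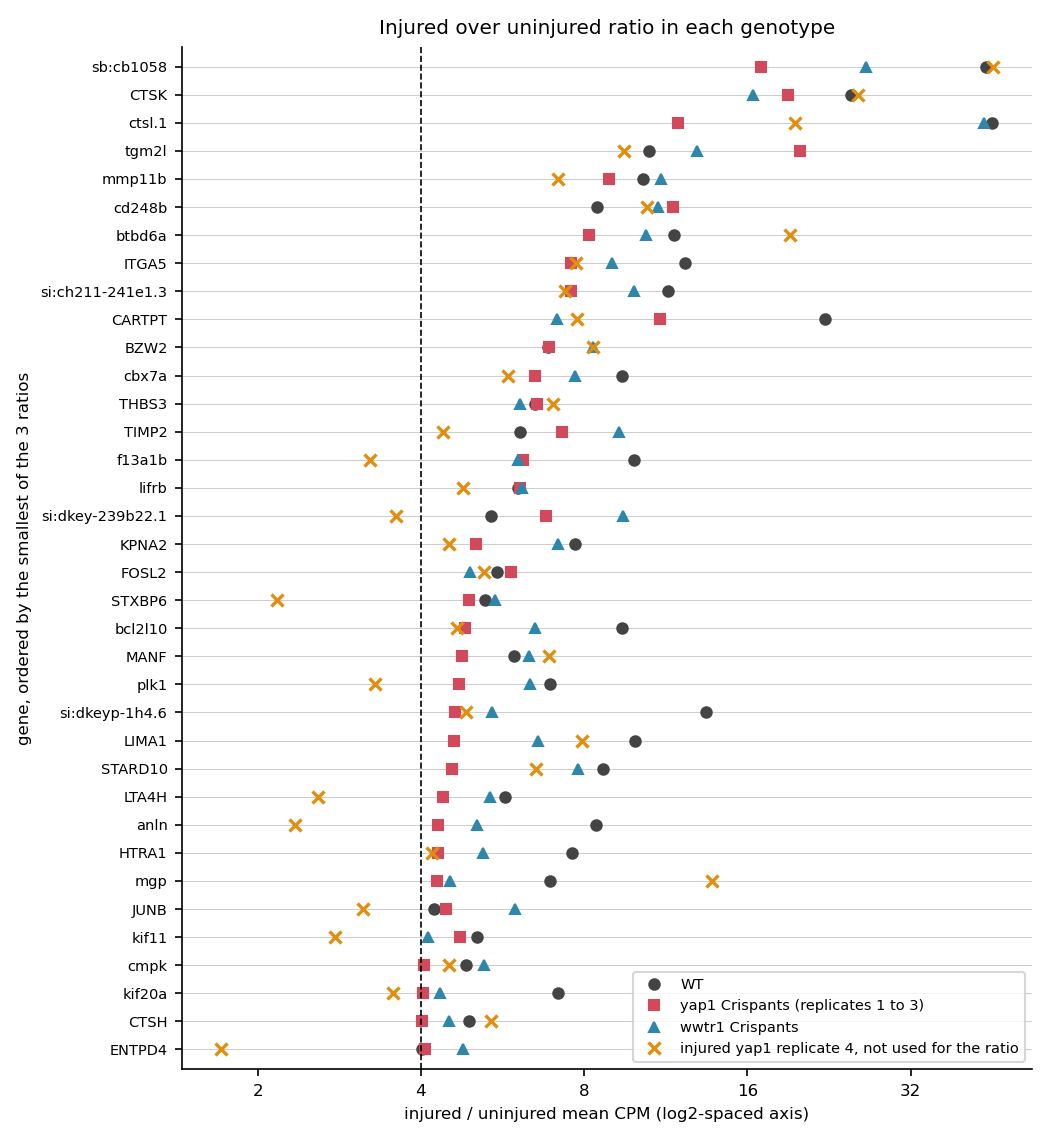
Injured over uninjured mean CPM (log2-spaced axis) of each of 36 members, ordered by the smallest of the 3 ratios. Circles are WT, squares *yap1* Crispants (injured replicates 1 to 3) and triangles *wwtr1* Crispants, crosses are injured *yap1* replicate 4 over the mean of uninjured *yap1*, and the dashed line marks the ratio of 4 that chose the members. Crosses fall left of the line for 10 members, lowest for ENTPD4 at 1.71.

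Just inside the threshold were ENTPD4 (smallest ratio 4.03), CTSH (4.03) and kif20a (4.03). Just outside were si:ch73-181m17.1 (3.97), the mitotic kinesin KIF23 (3.96) and zgc:194007 (3.92). The edge of the group moved with the scaling. Injured libraries spread their counts over more genes, and TMM scaling, which corrects for that, lowered the ratios. The median ratio of the members went from 7.61 to 6.79 in WT, from 5.86 to 4.44 in *yap1* Crispants and from 6.49 to 5.20 in *wwtr1* Crispants. A ratio of at least 4 was kept by 35 members in WT, 19 in *yap1* Crispants and 31 in *wwtr1* Crispants. On TMM-scaled CPM 18 of the 37 members still had all 3 ratios at 4 or more, and the lowest ratio of any member was 3.03. Leaving out uninjured *yap1* replicate 3 gave 51 genes by the same rule, 36 of them members, against 27 without uninjured *yap1* replicate 1.

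Of the 37 members, 36 had all 10 injured libraries above all 9 uninjured libraries. This held for 16% of the 10038 genes above the floor, a background that the ratio of 4 makes uninformative for the members. The exception was f13a1b, and without uninjured *yap1* replicate 3 it too was free of overlap. On TMM-scaled CPM there were 35, with kif20a as the other exception, and 7.65% of the genes above the floor. Within each genotype the injured and uninjured libraries did not overlap for any member. The share of all genes was not counted for this, so nothing is read from it. By the quasi-likelihood test of edgeR, with thresholds of 0.05 on the adjusted p and 1 on the log2 fold change, 37 members were called as raised by injury in WT, where 8.24% of 20979 genes tested were raised and 7.79% lowered. The same test called 36 in *yap1* Crispants (5.46% raised and 4.44% lowered) and 35 in *wwtr1* Crispants (6.26% raised and 4.74% lowered). The uncalled ones were kif20a in *yap1* and *wwtr1* Crispants and kif11 in *wwtr1* Crispants. Nothing is read from these counts, because the same contrasts chose the genes.

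**Figure D2:**
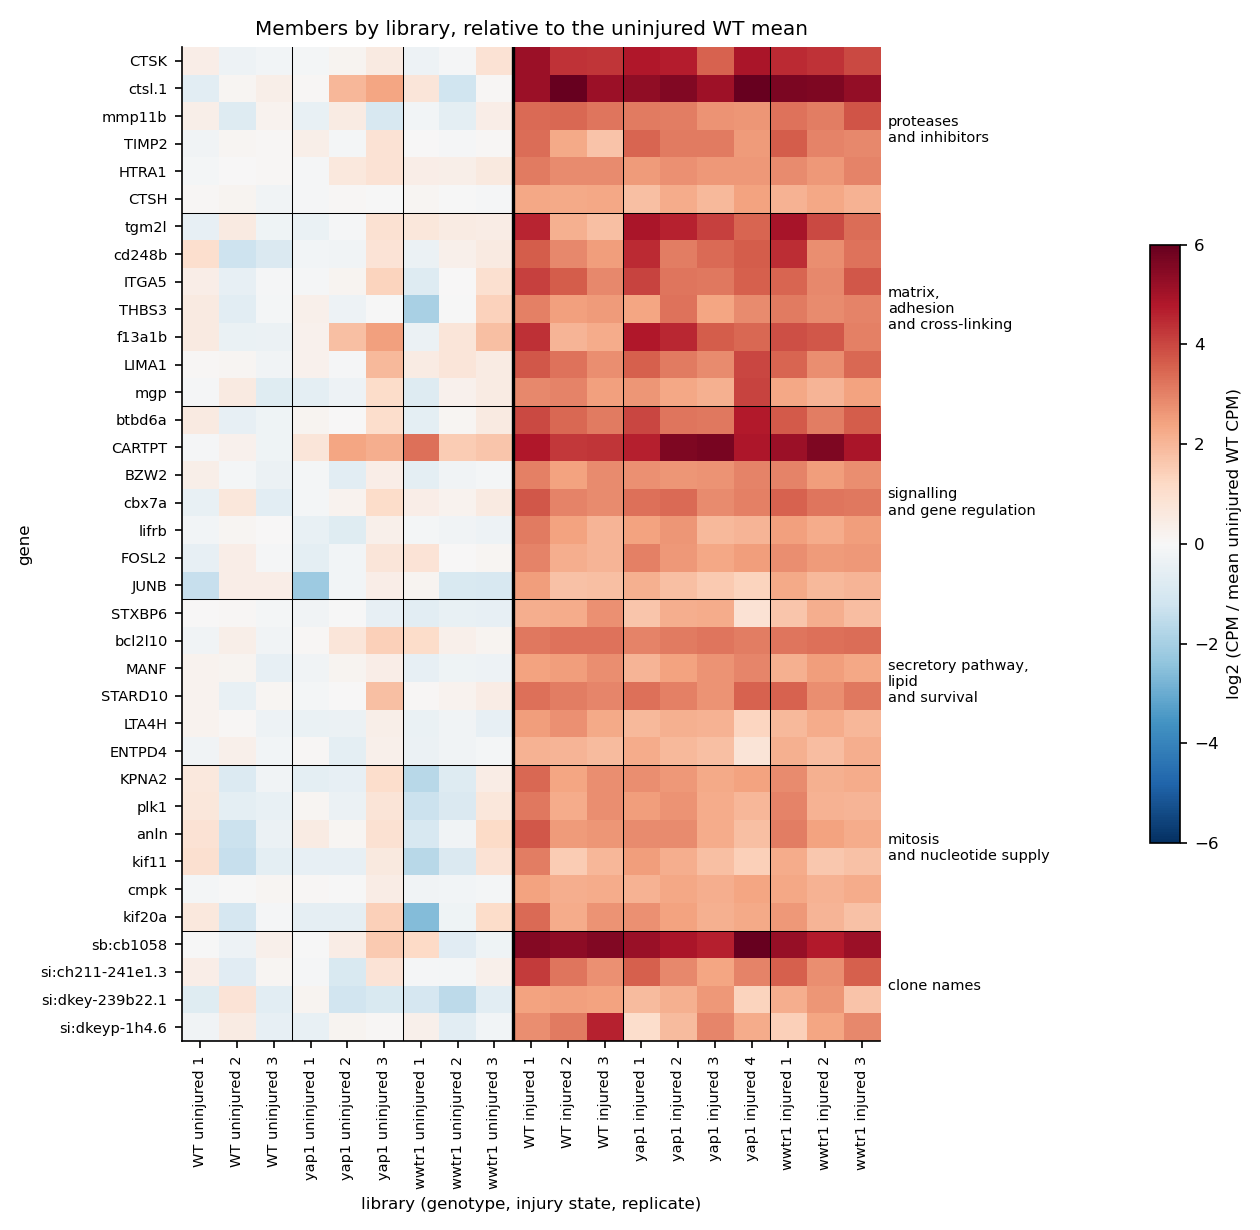
log2 of CPM over the uninjured WT mean (colour) for 36 members (rows, grouped by role) in the 19 libraries (columns), with a thick line between 9 uninjured and 10 injured libraries. All injured columns are red for every member shown, and uninjured *yap1* replicate 3 is the most red of the uninjured columns.

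Of 7 proteases and protease inhibitors, CTSK (ENSDARG00000040251) and ctsl.1 (ENSDARG00000003902) stood out. CTSK encodes cathepsin K, a lysosomal cysteine protease that degrades collagen and is known in mammals from bone-resorbing osteoclasts. CTSK without injury had 79.2, 48.2 and 52.99 CPM in WT, 55.4, 67.2 and 86.6 CPM in *yap1* Crispants and 48.5, 57.2 and 108 CPM in *wwtr1* Crispants. Upon injury CTSK had 2098, 1231 and 1160.4 CPM in WT, 1708, 1564, 702 and 1782 CPM in *yap1* Crispants and 1352, 1233 and 923 CPM in *wwtr1* Crispants. Injured *yap1* replicate 3 was the lowest injured library and uninjured *wwtr1* replicate 3 the highest uninjured library, 6.48-fold apart, and the injured groups overlapped each other. The ratios were 24.9 in WT, 18.99 in *yap1* and 16.4 in *wwtr1* Crispants. The gene ctsl.1 encodes a cathepsin L family cysteine protease. ctsl.1 without injury had 5.96, 9.98 and 11.9 CPM in WT, 9.62, 37.1 and 47.8 CPM in *yap1* Crispants and 15.5, 4.03 and 9.62 CPM in *wwtr1* Crispants. Upon injury ctsl.1 had 328, 608 and 321 CPM in WT, 371, 439, 314 and 617 CPM in *yap1* Crispants and 469, 447 and 358 CPM in *wwtr1* Crispants. Uninjured *yap1* replicates 2 and 3 were above the 7 other uninjured libraries, while the injured groups overlapped. Its ratio was accordingly 11.9 in *yap1* Crispants against 45.2 in WT and 43.7 in *wwtr1* Crispants.

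The only matrix metalloproteinase among the members was mmp11b (ENSDARG00000016718), of the stromelysin-3 type. mmp11b without injury had 39.8, 18.3 and 35.7 CPM in WT, 23.1, 43.4 and 16.3 CPM in *yap1* Crispants and 27.8, 20.7 and 40.7 CPM in *wwtr1* Crispants. Upon injury mmp11b had 328, 346 and 289 CPM in WT, 274, 262, 201 and 197 CPM in *yap1* Crispants and 297, 266 and 425 CPM in *wwtr1* Crispants. All 4 injured *yap1* libraries were below the 3 injured WT libraries, and injured *wwtr1* libraries overlapped WT. Its ratios were close, at 10.3 in WT, 8.91 in *yap1* and 11.1 in *wwtr1* Crispants. HTRA1 (ENSDARG00000014907) encodes a secreted serine protease that cuts matrix proteins. HTRA1 without injury had 43.2, 46.7 and 48.7 CPM in WT, 43.7, 71.6 and 85.02 CPM in *yap1* Crispants and 60.6, 58.2 and 68.6 CPM in *wwtr1* Crispants. Upon injury HTRA1 had 401, 328 and 326 CPM in WT, 273, 312, 276 and 280.2 CPM in *yap1* Crispants and 328, 282 and 368 CPM in *wwtr1* Crispants. Injured libraries kept to a narrow band, and uninjured Crispant libraries reached above the 3 uninjured WT libraries in 5 of 6 cases. CTSH (ENSDARG00000041108) encodes cathepsin H, a lysosomal aminopeptidase, and was just inside the threshold. CTSH without injury had 10.5, 11.2 and 8.80 CPM in WT, 9.60, 10.6 and 10.1 CPM in *yap1* Crispants and 10.9, 10.00 and 9.66 CPM in *wwtr1* Crispants. Upon injury CTSH had 50.4, 48.98 and 50.5 CPM in WT, 35.8, 47.5, 38.8 and 54.4 CPM in *yap1* Crispants and 42.98, 51.6 and 43.6 CPM in *wwtr1* Crispants. Its libraries varied little, and no uninjured group stood off from the others.

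TIMP2, an inhibitor of matrix metalloproteinases, ranged from 14.7 to 30.9 CPM over the uninjured and from 55.9 to 210.5 CPM over the injured libraries, with ratios of 6.09 in WT, 7.28 in *yap1* and 9.26 in *wwtr1* Crispants.

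A set of 7 members acts in matrix, adhesion, cross-linking or the cell cortex. The transglutaminase tgm2l (ENSDARG00000093381), of a family whose enzymes cross-link proteins, had the largest ratio in *yap1* Crispants of any member. tgm2l without injury had 7.24, 15.1 and 8.57 CPM in WT, 7.87, 9.73 and 19.2 CPM in *yap1* Crispants and 16.6, 14.6 and 13.8 CPM in *wwtr1* Crispants. Upon injury tgm2l had 245, 44.8 and 36.1 CPM in WT, 309, 252, 176 and 116 CPM in *yap1* Crispants and 318, 159 and 105 CPM in *wwtr1* Crispants. Injured WT replicates 2 and 3 were far below injured WT replicate 1 and below every injured Crispant library. The ratios were 10.5 in WT, 20.02 in *yap1* and 12.9 in *wwtr1* Crispants. Another transglutaminase, f13a1b, encodes a subunit of coagulation factor XIII, which stabilises fibrin clots. It ranged from 4.49 to 32.9 CPM uninjured and from 24.7 to 166 CPM injured, with the highest uninjured value in *yap1* replicate 3 and the lowest injured value in WT replicate 2, so that the 2 states overlapped.

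ITGA5 (ENSDARG00000006353) encodes the integrin alpha chain of the main fibronectin receptor. ITGA5 without injury had 13.9, 7.55 and 9.95 CPM in WT, 10.02, 11.8 and 26.7 CPM in *yap1* Crispants and 6.16, 10.8 and 20.2 CPM in *wwtr1* Crispants. Upon injury ITGA5 had 181, 128 and 77.3 CPM in WT, 177, 97.2, 94.04 and 125 CPM in *yap1* Crispants and 118, 77.95 and 139 CPM in *wwtr1* Crispants. Uninjured *yap1* replicate 3 and *wwtr1* replicate 3 were the highest uninjured libraries, and the injured groups overlapped. The ratios were 12.3 in WT, 7.57 in *yap1* and 9.02 in *wwtr1* Crispants. Its ligand gene FN1 was left out only for its abundance, with ratios of 47.0, 21.6 and 14.5 in the same order. The stromal surface glycoprotein gene cd248b (ENSDARG00000077938), which encodes endosialin, is known in mammals from fibroblasts and pericytes. cd248b without injury had 11.8, 2.48 and 3.25 CPM in WT, 5.25, 5.09 and 10.5 CPM in *yap1* Crispants and 4.53, 7.31 and 8.52 CPM in *wwtr1* Crispants. Upon injury cd248b had 71.9, 43.1 and 33.4 CPM in WT, 132, 48.7, 62.3 and 72.6 CPM in *yap1* Crispants and 126, 40.9 and 55.6 CPM in *wwtr1* Crispants. Replicate 1 was highest in each injured genotype, and uninjured WT replicate 1 was above the other 8 uninjured libraries. The ratios were 8.46 in WT, 11.7 in *yap1* and 10.9 in *wwtr1* Crispants.

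LIMA1 (ENSDARG00000101441) encodes EPLIN, which bundles actin filaments at cell junctions. LIMA1 without injury had 48.5, 49.4 and 39.1 CPM in WT, 54.3, 43.8 and 177 CPM in *yap1* Crispants and 63.5, 75.2 and 63.8 CPM in *wwtr1* Crispants. Upon injury LIMA1 had 611, 433 and 318 CPM in WT, 548, 401, 321 and 729 CPM in *yap1* Crispants and 521, 312 and 497 CPM in *wwtr1* Crispants. Uninjured *yap1* replicate 3 was over 2 times the next uninjured library, and the ratio in *yap1* Crispants, 4.61, was less than that of 9.95 in WT. Without that library it was 8.63. The gene mgp (ENSDARG00000086189) encodes matrix Gla protein, an inhibitor of calcification. mgp without injury had 9.18, 13.8 and 5.69 CPM in WT, 6.32, 7.80 and 20.6 CPM in *yap1* Crispants and 5.51, 11.5 and 13.6 CPM in *wwtr1* Crispants. Upon injury mgp had 71.5, 74.7 and 52.4 CPM in WT, 59.2, 47.1, 41.99 and 159 CPM in *yap1* Crispants and 48.5, 38.9 and 51.1 CPM in *wwtr1* Crispants. Injured *yap1* replicate 4, which the ratio of the rule did not use, was above all other injured libraries. THBS3, a thrombospondin of the extracellular matrix, ranged from 1.42 to 14.3 CPM uninjured and from 28.3 to 52.1 CPM injured, with ratios of 6.50 in WT, 6.55 in *yap1* and 6.09 in *wwtr1* Crispants.

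Of 7 members in signalling and gene regulation, CARTPT (ENSDARG00000035852) had the largest ratio in WT. It encodes the precursor of the CART neuropeptides. CARTPT without injury had 5.71, 7.28 and 5.05 CPM in WT, 9.93, 31.4 and 26.9 CPM in *yap1* Crispants and 60.2, 17.3 and 18.9 CPM in *wwtr1* Crispants. Upon injury CARTPT had 170.4, 115 and 116 CPM in WT, 151, 296, 307 and 176 CPM in *yap1* Crispants and 213, 295 and 178 CPM in *wwtr1* Crispants. All 6 uninjured Crispant libraries were above the 3 uninjured WT libraries, and uninjured *wwtr1* replicate 1 was the highest. The ratios were 22.3 in WT, 11.1 in *yap1* and 7.12 in *wwtr1* Crispants. The name table gives this symbol to 4 gene IDs, and reads shared between such paralogs may be split.

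FOSL2 (ENSDARG00000040623) encodes an AP-1 factor of the Fos family. FOSL2 without injury had 37.2, 68.98 and 49.96 CPM in WT, 35.2, 46.9 and 86.6 CPM in *yap1* Crispants and 90.7, 52.6 and 56.3 CPM in *wwtr1* Crispants. Upon injury FOSL2 had 413, 232 and 217 CPM in WT, 418, 312, 257 and 295 CPM in *yap1* Crispants and 361, 309 and 314 CPM in *wwtr1* Crispants. Replicate 1 was the highest library in all 3 injured groups, and the groups overlapped. The ratios were 5.52 in WT, 5.86 in *yap1* and 4.93 in *wwtr1* Crispants. JUNB (ENSDARG00000074378), a Jun family partner in AP-1, ranged from 16.1 to 95.6 CPM uninjured and from 182 to 414 CPM injured. Its uninjured libraries spread by several times within WT and *yap1* Crispants, the ratios were 4.24 in WT, 4.46 in *yap1* and 5.97 in *wwtr1* Crispants, and another gene ID that carries the same symbol was among the 7 set aside.

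The BTB domain gene btbd6a (ENSDARG00000076440), which in zebrafish has been tied to neurogenesis, had ratios of 11.7 in WT, 8.18 in *yap1* and 10.4 in *wwtr1* Crispants. btbd6a without injury had 7.65, 3.74 and 4.42 CPM in WT, 5.94, 5.31 and 10.8 CPM in *yap1* Crispants and 3.55, 5.74 and 7.74 CPM in *wwtr1* Crispants. Upon injury btbd6a had 82.3, 57.9 and 45.2 CPM in WT, 84.6, 49.02, 47.02 and 141 CPM in *yap1* Crispants and 67.6, 44.6 and 64.9 CPM in *wwtr1* Crispants. Injured *yap1* replicate 4 was the highest library by a wide margin. The remaining 3 of this group are given by their ranges. BZW2, which mimics a translation initiation factor, ranged from 5.26 to 10.5 CPM uninjured and from 42.4 to 65.8 CPM injured. The Polycomb gene cbx7a ranged from 19.1 to 63.5 and from 208 to 383 CPM. A receptor gene for LIF family cytokines, lifrb, ranged from 7.99 to 16.3 and from 52.0 to 116 CPM, with ratios of 6.04 in WT, 6.10 in *yap1* and 6.15 in *wwtr1* Crispants.

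A set of 6 members serves the secretory pathway, lipid handling or survival. MANF (ENSDARG00000063177) encodes a secreted factor of the endoplasmic reticulum that is induced by unfolded protein. MANF without injury had 52.8, 51.2 and 31.9 CPM in WT, 39.6, 51.4 and 60.3 CPM in *yap1* Crispants and 32.6, 38.3 and 37.04 CPM in *wwtr1* Crispants. Upon injury MANF had 240.0, 260.0 and 309 CPM in WT, 185, 245, 289 and 348 CPM in *yap1* Crispants and 197, 259 and 229 CPM in *wwtr1* Crispants. Injured *yap1* replicate 4 was highest and replicate 1 lowest within injured *yap1*, and no genotype was apart. The ratios were 5.95 in WT, 4.76 in *yap1* and 6.34 in *wwtr1* Crispants. STXBP6 (ENSDARG00000088862) encodes amisyn, a regulator of SNARE-mediated vesicle fusion. STXBP6 without injury had 23.1, 24.5 and 21.4 CPM in WT, 19.6, 22.3 and 16.4 CPM in *yap1* Crispants and 14.7, 16.8 and 16.2 CPM in *wwtr1* Crispants. Upon injury STXBP6 had 104, 107 and 151 CPM in WT, 71.8, 105, 109 and 42.3 CPM in *yap1* Crispants and 73.5, 105 and 82.9 CPM in *wwtr1* Crispants. Injured *yap1* replicate 4 was the lowest injured library, and 2 of the 3 injured WT libraries lay within the range of the injured Crispants.

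The Bcl-2 family gene bcl2l10 (ENSDARG00000026766), whose family controls mitochondrial apoptosis, reached nearly the same level in every injured library. bcl2l10 without injury had 16.2, 23.4 and 15.7 CPM in WT, 19.1, 30.2 and 49.5 CPM in *yap1* Crispants and 39.8, 22.6 and 20.8 CPM in *wwtr1* Crispants. Upon injury bcl2l10 had 164, 177 and 179 CPM in WT, 144, 162, 172 and 154 CPM in *yap1* Crispants and 173, 179 and 188 CPM in *wwtr1* Crispants. Its ratios of 9.40 in WT, 4.83 in *yap1* and 6.49 in *wwtr1* Crispants differed through the uninjured libraries, where *yap1* replicate 3 and *wwtr1* replicate 1 were high. ENTPD4 (ENSDARG00000038422) encodes a nucleoside diphosphatase of internal membranes. ENTPD4 without injury had 10.01, 14.8 and 10.5 CPM in WT, 12.3, 7.90 and 14.6 CPM in *yap1* Crispants and 9.36, 10.3 and 10.9 CPM in *wwtr1* Crispants. Upon injury ENTPD4 had 49.2, 48.8 and 44.2 CPM in WT, 54.97, 45.4, 41.4 and 19.8 CPM in *yap1* Crispants and 51.00, 42.4 and 52.6 CPM in *wwtr1* Crispants. Injured *yap1* replicate 4 was the lowest injured library by a wide gap, and stayed above all uninjured ones. STARD10, a lipid transfer protein gene, ranged from 4.24 to 19.8 CPM uninjured and from 36.9 to 67.3 CPM injured, and LTA4H, whose enzyme makes the neutrophil attractant leukotriene B4, from 6.21 to 11.2 and from 21.2 to 57.7 CPM.

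A set of 6 members acts in mitosis, nuclear import or nucleotide supply, and 5 of them had their smallest ratio in *yap1* Crispants, or 3 without uninjured *yap1* replicate 3. KPNA2 (ENSDARG00000038066) encodes an importin alpha that is high in dividing cells. KPNA2 without injury had 83.8, 29.99 and 47.01 CPM in WT, 35.9, 38.7 and 113 CPM in *yap1* Crispants and 16.7, 31.2 and 73.7 CPM in *wwtr1* Crispants. Upon injury KPNA2 had 592, 273 and 375 CPM in WT, 365, 321, 261 and 282 CPM in *yap1* Crispants and 381, 234 and 254 CPM in *wwtr1* Crispants. Uninjured *yap1* replicate 3 was the highest and uninjured *wwtr1* replicate 1 the lowest uninjured library. The ratio in *yap1* Crispants was 5.05, or 8.46 without that *yap1* library. The mitotic kinase gene plk1 (ENSDARG00000058471) had ratios of 6.93 in WT, 4.71 in *yap1* and 6.37 in *wwtr1* Crispants. plk1 without injury had 14.2, 5.95 and 6.61 CPM in WT, 9.80, 6.95 and 15.2 CPM in *yap1* Crispants and 3.67, 4.86 and 14.2 CPM in *wwtr1* Crispants. Upon injury plk1 had 80.5, 42.4 and 62.5 CPM in WT, 51.03, 57.97, 41.5 and 35.01 CPM in *yap1* Crispants and 69.5, 38.5 and 37.1 CPM in *wwtr1* Crispants. Among injured libraries WT replicate 1 was highest and *yap1* replicate 4 lowest. The gene anln (ENSDARG00000060917) encodes anillin, a scaffold of the cytokinetic ring. anln without injury had 19.1, 4.34 and 8.28 CPM in WT, 14.9, 11.4 and 20.2 CPM in *yap1* Crispants and 5.43, 9.14 and 23.5 CPM in *wwtr1* Crispants. Upon injury anln had 139.6, 61.96 and 65.7 CPM in WT, 75.1, 75.3, 49.9 and 36.4 CPM in *yap1* Crispants and 87.9, 55.7 and 49.9 CPM in *wwtr1* Crispants. Its ratio was 8.42 in WT, where replicate 1 was well above the other injured libraries, against 4.31 in *yap1* and 5.08 in *wwtr1* Crispants.

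The cytokinesis kinesin gene kif20a (ENSDARG00000044491) was just inside the threshold. kif20a without injury had 8.88, 2.85 and 5.39 CPM in WT, 3.92, 3.93 and 15.4 CPM in *yap1* Crispants and 0.953, 4.82 and 12.1 CPM in *wwtr1* Crispants. Upon injury kif20a had 59.3, 26.6 and 36.7 CPM in WT, 38.02, 30.6, 25.03 and 27.5 CPM in *yap1* Crispants and 34.5, 23.3 and 19.5 CPM in *wwtr1* Crispants. Uninjured libraries spread from 0.953 CPM in *wwtr1* replicate 1 to 15.4 CPM in *yap1* replicate 3, and the states stayed apart, though not on TMM-scaled CPM. The ratios were 7.16 in WT, 4.03 in *yap1* and 4.34 in *wwtr1* Crispants, and that in *yap1* Crispants was 7.96 without uninjured replicate 3. The spindle motor gene kif11 ranged from 3.62 to 22.7 CPM uninjured and from 31.5 to 98.5 CPM injured. By contrast cmpk, which encodes UMP-CMP kinase, had narrow groups, from 47.9 to 76.9 and from 236 to 294 CPM.

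The last 4 members carry only clone names, and no function is given for them. The gene sb:cb1058 (ENSDARG00000099819) had the highest smallest ratio of all. sb:cb1058 without injury had 5.33, 4.38 and 6.63 CPM in WT, 5.38, 7.53 and 16.3 CPM in *yap1* Crispants and 12.6, 3.41 and 4.62 CPM in *wwtr1* Crispants. Upon injury sb:cb1058 had 245, 223 and 254 CPM in WT, 196, 161, 139 and 443 CPM in *yap1* Crispants and 207, 149.6 and 190.4 CPM in *wwtr1* Crispants. Every injured library was at least 8.51 times the highest uninjured library, and injured *yap1* replicate 4 was the highest of all. Its ratios were 44.1 in WT, 16.99 in *yap1* and 26.5 in *wwtr1* Crispants, with 25.6 in *yap1* Crispants without uninjured replicate 3. Another clone gene, ENSDARG00000022615, had ratios of 11.4 in WT, 7.56 in *yap1* and 9.88 in *wwtr1* Crispants. ENSDARG00000022615 without injury had 19.2, 9.04 and 15.7 CPM in WT, 13.7, 7.80 and 25.9 CPM in *yap1* Crispants and 13.9, 13.5 and 18.2 CPM in *wwtr1* Crispants. Upon injury ENSDARG00000022615 had 267, 136 and 98.3 CPM in WT, 174, 108, 76.7 and 117 CPM in *yap1* Crispants and 174, 102 and 175 CPM in *wwtr1* Crispants. The injured groups overlapped, and replicate 1 was highest in WT and *yap1* Crispants. The gene si:dkeyp-1h4.6 (ENSDARG00000093936) differed most between injured genotypes. si:dkeyp-1h4.6 without injury had 6.34, 10.5 and 5.25 CPM in WT, 5.49, 8.18 and 7.69 CPM in *yap1* Crispants and 9.24, 4.82 and 6.64 CPM in *wwtr1* Crispants. Upon injury si:dkeyp-1h4.6 had 50.9, 63.2 and 182 CPM in WT, 15.4, 27.7, 55.7 and 34.5 CPM in *yap1* Crispants and 19.7, 37.8 and 54.4 CPM in *wwtr1* Crispants. Injured WT replicate 3 was far above all other injured libraries, and injured *yap1* replicate 1 and *wwtr1* replicate 1 were the lowest. The fourth, si:dkey-239b22.1, ranged from 6.48 to 34.5 CPM uninjured and from 49.0 to 122 CPM injured, with ratios of 5.39 in WT, 6.79 in *yap1* and 9.44 in *wwtr1* Crispants.

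**Figure D3:**
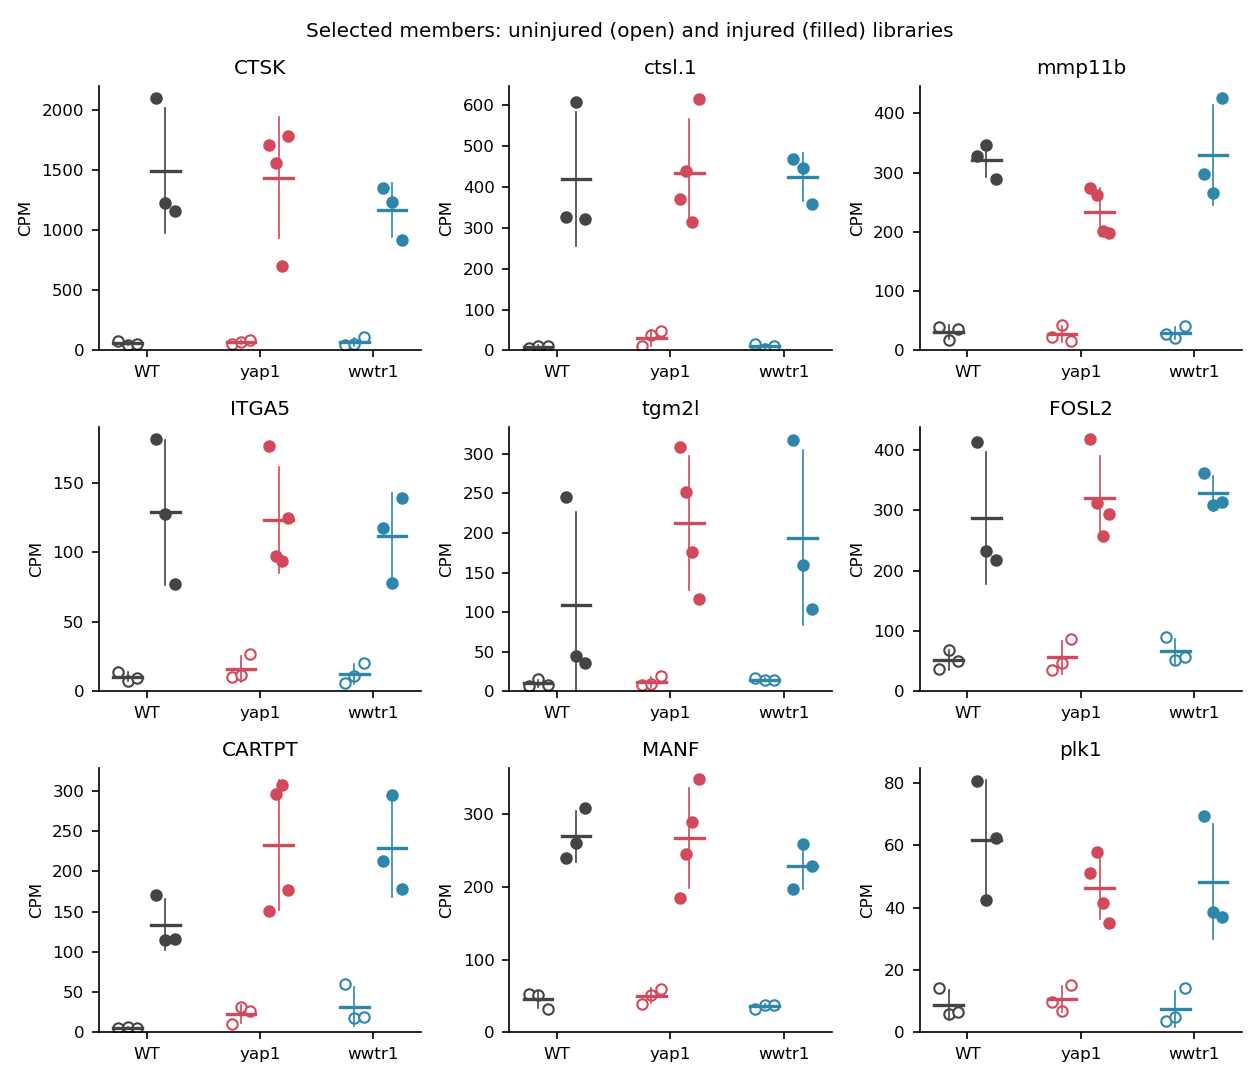
CPM of 9 members in uninjured (open) and injured (filled) libraries of WT, *yap1* and *wwtr1* Crispants, with the mean (horizontal bar) and SD (vertical bar) of each group of 3 or 4 libraries. Injured points are above uninjured points in every panel, the WT spread of tgm2l is wide because of 1 library, and uninjured CARTPT is lowest in WT.

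Injured *yap1* replicate 4 was kept out of the ratio that chose the members. It entered the rule through the mean over all 19 libraries that set aside the 100 most abundant genes, and leaving it out there gave the same 37 genes. Its ratio still shares the 3 uninjured *yap1* libraries with the rule. Over the mean of uninjured *yap1*, 27 of the 37 members had a ratio of at least 4 in this library. This held for 1.11% of the 10038 genes above the floor. A ratio of at least 2 was reached by 36 members, and the share of all genes was not counted for it. The median ratio of the members was 5.24. Without uninjured *yap1* replicate 3, 31 of 37 members had a ratio of at least 4, against 1.74% of the genes above the floor. The median of the members was then 6.97. edgeR called 30 of 37 members as higher in this library than in uninjured *yap1* Crispants, against 7.9% of all genes tested, and DESeq2 called 31. With 1 library on the injured side, this test assumes that it varies like the libraries of the other groups. Every uninjured library it can be set against, of any genotype, was used by the rule. The count ran from 26 to 30 when an uninjured *yap1* library was left out, and was 34 with all 9 uninjured libraries as the reference.

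In replicates 1 to 3 the median *yap1* ratio was 8.91 for proteases and inhibitors and 4.51 for mitosis and nucleotide genes. Counts at a ratio of 4 in replicate 4 therefore do not compare these groups. All 7 proteases and inhibitors had a ratio of at least 4, as did 6 of 7 matrix and adhesion genes, 6 of 7 signalling genes, 3 of 6 secretory, lipid and survival genes, 2 of 6 mitosis and nucleotide genes (4 without uninjured *yap1* replicate 3) and 3 of 4 genes with clone names. Against injured *yap1* replicates 1 to 3, replicate 4 was above all 3 for 11 members, below all 3 for 13 and between them for 13. It was below all 3 for 3 of 7 proteases and inhibitors and for 3 of 6 mitosis and nucleotide genes. These places rest on raw library totals. The TMM factor of replicate 4 was 0.926, below the 1.21, 1.11 and 1.03 of replicates 1 to 3. Relative to the mean of replicates 1 to 3, replicate 4 was highest for mgp (3.21 times), sb:cb1058 (2.68) and btbd6a (2.35). It was lowest for ENTPD4 (0.419) and STXBP6 (0.444). The 7 members that edgeR did not call were plk1, ENTPD4, JUNB, kif20a, f13a1b, kif11 and anln, with log2 fold changes between 0.68 and 1.70.

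The uninjured libraries did not all sit at the same level. Relative to the mean of uninjured WT, the median member was at a log2 value of 0.82 in uninjured *yap1* replicate 3, with 13 of 37 members more than 2 times higher. In the other 8 uninjured libraries the median lay between -0.22 and 0.38. That library was the highest of 9 for 24 members. Its summed CPM over all members, 1418, compared with 673 and 848 in the other uninjured *yap1* libraries, 740 to 827 in WT and 730 to 954 in *wwtr1* Crispants, and with 5648 to 9288 in the injured libraries of all genotypes.

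Markers of white blood cells were high in the same library. Summed CPM of 7 pan-leukocyte markers was 40.6 in uninjured *yap1* replicate 3 and between 10.5 and 15.5 in the other uninjured libraries. For 10 macrophage markers the values were 13500.4 and 5295 to 7913, and for 6 neutrophil markers 487 and 70.08 to 198. These were the markers of 9, 15 and 12 listed that matched a gene. None was at 0 in all libraries of a group, and none is a member. The neutrophil list includes the protease gene MMP9, which the rule set aside. MMP9 alone had means of 103 CPM in uninjured WT, 227 in uninjured *yap1* and 140 in uninjured *wwtr1* Crispants. The neutrophil sum is thus mostly that gene and need not reflect neutrophils. The macrophage sum was far above the pan-leukocyte sum in every library, and need not reflect macrophages either. Upon injury the pan-leukocyte sum was between 94.5 and 179.9 CPM, the macrophage sum between 11604 and 21465 and the neutrophil sum between 418 and 909 CPM over all 10 libraries. The part of leukocyte content in the levels of the members was not tested. In bulk tissue, more cells of a type and more RNA per cell cannot be told apart.

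**Figure D4:**
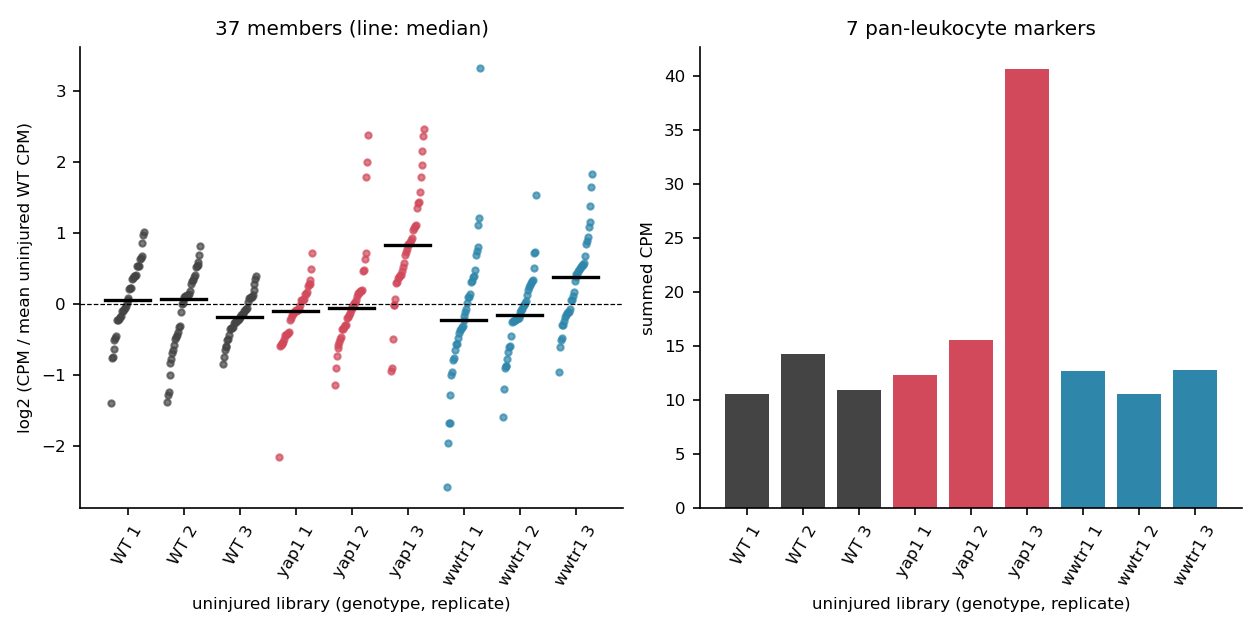
Left, log2 of CPM over the uninjured WT mean for the 37 members (points, sorted within a library, with a line at the median) in the 9 uninjured libraries. Right, summed CPM of 7 pan-leukocyte markers in the same libraries, where *yap1* replicate 3 is at 40.6 and the others lie between 10.5 and 15.5.

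Levels of the members were then compared between genotypes at the same injury state. The rule did not use this contrast, though it used the same libraries. It also asked for the floor and the ratio in every genotype, so genes without the response in a Crispant had been left out beforehand. In uninjured *yap1* Crispants against uninjured WT, 1 member passed the test, against 2.24% of all 20979 genes in either direction. This was CARTPT, with a log2 fold change of 2.08 (SE 0.48, adjusted p = 0.0231 by edgeR after Benjamini-Hochberg correction), higher in 3 of 3 *yap1* libraries than in all WT libraries. The call was lost when any of 5 of the 6 libraries compared was left out, with adjusted p from 0.00697 to 0.119 over the 6. It was lost without each WT library and without *yap1* replicates 2 or 3, and when only these 2 groups were fitted (adjusted p = 0.0612). Over all 26 alternatives the adjusted p ran from 0.000378 to 0.119. DESeq2 called CARTPT, ctsl.1, bcl2l10 and f13a1b, and over all genes it called 737 higher and 37 lower.

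In uninjured *yap1* Crispants 32 of 37 members had a log2 fold change above 0 against WT, and the median was 0.40, while that of all genes tested was -0.05. This rested on replicate 3. Without that library 19 members were above 0 and the median was 0.05. Summed CPM of 11 fin mesenchyme markers was also higher in uninjured *yap1* Crispants, from 34771 to 43881 against 6224 to 17265 in uninjured WT, and its part in these differences was not tested.

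In uninjured *wwtr1* Crispants against uninjured WT edgeR called 0 members (0% of all genes). At an unadjusted p under 0.05 there were 4 members of 37 and 3.89% of all genes. DESeq2 called 1, CARTPT, and over all genes it called 14 higher and 9 lower. The edgeR log2 fold change of CARTPT was 2.50 (SE 0.48, adjusted p = 0.374). The median over members was 0.14, or -0.09 without uninjured *wwtr1* replicate 3. CARTPT was thus the member with the greatest difference from WT in both uninjured Crispants, by values that share the 3 WT libraries.

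**Figure D5:**
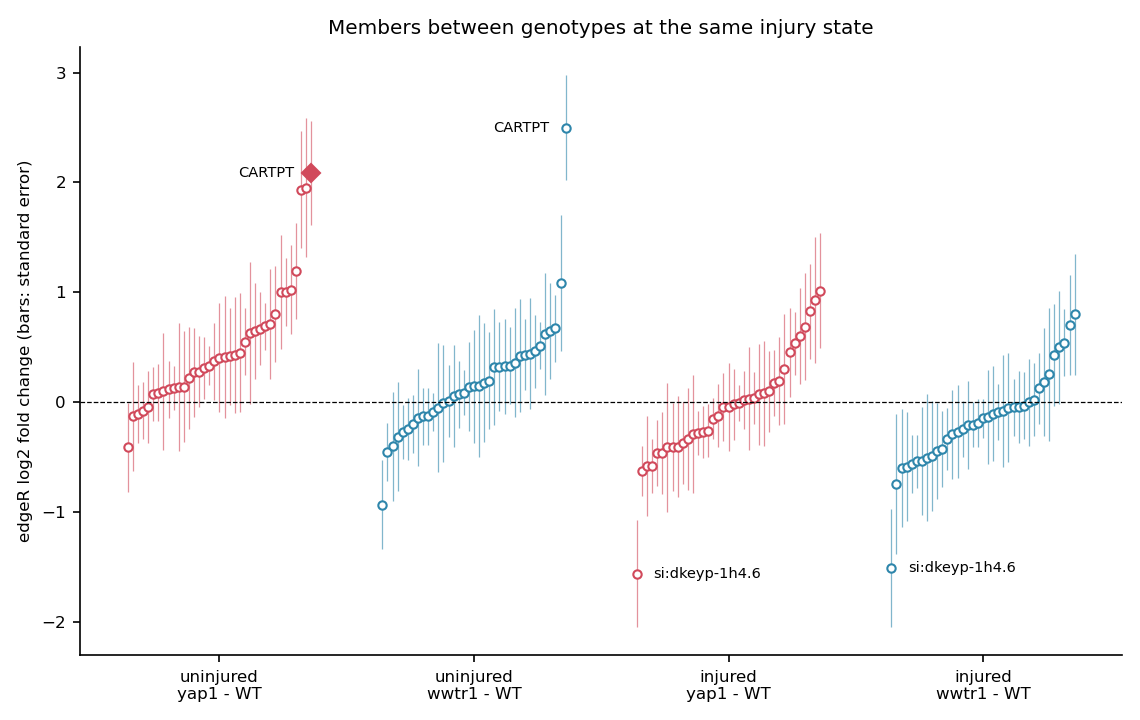
edgeR log2 fold change with standard error of each of the 37 members in 4 comparisons of Crispants with WT at the same injury state, sorted within a comparison. The filled diamond is the only call, CARTPT in uninjured *yap1* Crispants (2.08), and open circles were not called.

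Among injured fish, 0 members differed from WT by edgeR's test in *yap1* Crispants (0% of all genes) or in *wwtr1* Crispants (0% of all genes). DESeq2 called 0 members in either. Over all genes it called 162 higher and 3 lower in *yap1*, and 16 higher and 3 lower in *wwtr1* Crispants. At an unadjusted p under 0.05 there were 3 members in each comparison, with 8.25% and 4.99% of all genes. The 3 were the same in both, and both share the injured WT libraries. The gene si:dkeyp-1h4.6 had log2 fold changes of -1.56 in *yap1* (SE 0.49, adjusted p = 0.397 by edgeR) and -1.51 in *wwtr1* Crispants (SE 0.53, adjusted p = 0.981). For LTA4H the values were -0.63 and -0.54, and for STXBP6 -0.58 and -0.57. The median over all members was -0.04 in *yap1* and -0.15 in *wwtr1* Crispants. With 3 or 4 libraries a group and a median coefficient of variation of 31.2% for members in injured WT, against 16.2% for all genes above the floor, small differences could not be seen at this replication.

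The response to injury itself differed between genotypes for some members by more than a log2 value of 1, given as values because the rule used each response. The widest gap was that of ctsl.1, with TMM-scaled log2 fold changes of 5.34 in WT, 3.49 in *yap1* and 5.12 in *wwtr1* Crispants. CARTPT followed with 4.31, 3.05 and 2.51. The same order of values was 3.63, 1.97 and 2.13 for si:dkeyp-1h4.6, 2.90, 1.61 and 2.01 for anln and 3.08, 1.95 and 2.38 for bcl2l10. For ctsl.1, CARTPT and bcl2l10 the lower ratio went with higher uninjured levels, for si:dkeyp-1h4.6 with lower injured levels than in WT, and for anln with both. At the other end lifrb and BZW2 had gaps of 0.19 and 0.15 between their most different genotypes.

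Other genes of the same pathways were read from lists chosen with results of these data known, by the same test, leaving the members out, and the genes named from them as examples were picked after their values were seen. Listed symbols that matched no gene ID or more than 1 were left out, so each list covers only part of its pathway. The match was 20 of 22 symbols for cell cycle, 17 of 27 for matrix proteases and 17 of 29 for matrix and adhesion. It was 14 of 26 for metabolism and transport and 20 of 39 for growth factors and fin regeneration. Over all genes tested 8.24% were raised in WT, 5.46% in *yap1* and 6.26% in *wwtr1* Crispants, and 7.79%, 4.44% and 4.74% were lowered. Of 19 other cell cycle genes tested, 11 were raised in WT, 7 in *yap1* and 10 in *wwtr1* Crispants, and 0 were lowered. The mitotic kinase gene CDK1 rose by log2 values of 2.35, 1.56 and 1.89, the cyclin gene CCNB1 by 2.35, 1.75 and 2.09, and PCNA, the replication clamp, by 1.32, 1.05 and 1.31. The list's median log2 fold change was 1.44, 1.11 and 1.33 in that order, while that of all genes was between -0.06 and 0.01.

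Of 23 other genes of the unfolded protein response and stress, 5 were raised and 2 lowered in WT, 7 and 1 in *yap1*, and 7 and 1 in *wwtr1* Crispants. The endoplasmic reticulum chaperones HSPA5 (1.44, 1.69 and 1.88) and HSP90B1 (1.63, 1.55 and 1.70) rose in all 3 genotypes, as did CRELD2, SDF2L1 and PDIA4. CHAC1, which degrades glutathione, fell in all 3, with log2 fold changes of -1.71, -1.68 and -1.22.

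Of 12 other matrix proteases and inhibitors, 5 were raised and 2 lowered in WT, 2 and 1 in *yap1*, and 4 and 0 in *wwtr1* Crispants. The membrane protease genes adam8a (4.93, 4.49 and 4.55) and adam8b (2.60, 1.84 and 2.21) rose in all 3. Of 15 other matrix and adhesion genes, 3 rose in each genotype and 5, 2 and 3 fell. The hyaluronan receptor gene cd44a rose (4.33, 2.51 and 3.63), while the cross-linking enzyme gene LOX fell (-3.15, -3.49 and -2.85). Of 19 other AP-1, ATF and immediate early genes, 2 rose and 4 fell in WT, 1 rose and 0 fell in *yap1*, and 0 were called in *wwtr1* Crispants. Of 16 other phagocytosis, lysosome and lipid genes, 4 rose and 1 fell in WT, 3 and 0 in *yap1*, and 4 and 0 in *wwtr1* Crispants, with the cathepsin gene CTSC (1.71, 1.13 and 1.34) among those raised in all 3. Of 20 listed genes of cytokine receptors and JAK-STAT signalling, 3 rose and 3 fell in WT, 3 and 1 in *yap1*, and 2 and 2 in *wwtr1* Crispants. None of them is a member, but the list did not name the member lifrb, itself a cytokine receptor gene.

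Further lists held no member. Of 27 cytokine and chemokine genes, 11 were raised and 4 lowered in WT, 10 and 1 in *yap1*, and 9 and 2 in *wwtr1* Crispants, with a median log2 fold change of 1.44, 1.06 and 1.83. Of 17 complement and acute phase genes, 7 and 3, 3 and 1, and 5 and 2 were raised and lowered in the same order, with medians of 1.2003, 1.016 and 0.599. Raised genes were 3, 2 and 2 of 22 in NF-kB and innate sensing, where 2, 0 and 0 were lowered. They were 1, 0 and 0 of 13 in interferon and antigen presentation, with 0 lowered. Among 19 growth factor and fin regeneration genes 3, 1 and 2 were raised and 2, 1 and 1 lowered. Among 13 genes of metabolism and transport 0, 2 and 2 were raised and 3, 3 and 2 lowered, and among 19 of cytoskeleton and membrane repair 5, 4 and 5 were raised and 1, 2 and 2 lowered.

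Of 8 notochord markers 4 were lowered in WT, 3 in *yap1* and 3 in *wwtr1* Crispants, and 1 was raised in *yap1* Crispants. Their summed CPM was 995 to 2022 over uninjured and 288 to 928 over injured libraries. The sums of the states did not overlap. Of 11 fin mesenchyme markers 5, 4 and 5 were lowered and 0 raised, against the shares of all genes given above. Their summed CPM was 6224 to 17265 in uninjured and 5341 to 9982 in injured WT, 34771 to 43881 and 7318 to 27274 in *yap1*, and 6679 to 21412 and 5410 to 8505 in *wwtr1* Crispants, with overlap of the states in WT and *wwtr1* Crispants. The part of the tissue removed by the cut in the levels of the members was not tested.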

How the data were processed

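The authors used Trim Galore to remove adapters, BWA-MEM, which is not splice-aware, to align, SAMtools to sort and HTSeq to count reads per Ensembl gene of GRCz11, and deposited whole-number counts for 19 libraries. Versions and the strand setting of counting are not given in the sources used here, so overlapping or antisense genes and close paralogs are uncertain. All 37 members have a symbol in the name table, as do 29201 of the 32520 IDs. CPM used the column sum as library size, as the rule demands, so that 3 counts stand for 0.0371 to 0.107 CPM, for counting error only. Genotype contrasts were tested with edgeR 4.0.16 in R 4.3.3, in a quasi-likelihood fit of all 6 groups over the 20979 genes that filterByExpr kept, with TMM scaling and Benjamini-Hochberg adjustment. Calls had an adjusted p below 0.05 together with an absolute log2 fold change above 1. DESeq2 1.42.0 was an alternative, and the fits were tested on simulated data. No 2 libraries of a group agreed within sampling noise.

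The members and gene lists were chosen with earlier results of these data known. Values in each library are given for the members with the 10 highest smallest ratios, the 6 highest injured means, the 3 nearest the threshold, any genotype call, the 3 highest and 3 lowest relative values in injured *yap1* replicate 4, those on a list, and the 5 with the widest difference in response. Of these, 1 member is not reported here by name and is kept in the counts. The 3 genes just outside the threshold are given by ratio only. Promoter sequences, proteins and coordinates were not used here.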

Additional observations from a re-analysis of the deposited data

Results flagged for a closer look

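Among the 4 injured *yap1* libraries, mgp, which encodes an inhibitor of calcification, was much higher in replicate 4 (159 CPM) than in replicates 1 to 3 (59.2, 47.1 and 42.0 CPM). The gap to the next library was 0.853 of the whole range, past Dixon's 95% limit for 4 values. The summed members and each of the 37 members were screened in this way, so 38 values in all, and chance alone passes about 1 in 20.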

How the results depend on the processing

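The number of genes that met the rule was 20 on TMM-scaled CPM, 77 with a floor of 2 CPM, 22 with a floor of 10 CPM, 105 with a ratio of 3 and 16 with a ratio of 6, against 37. It was 36 with group medians, of which 26 were members, and 37 with injured *yap1* replicate 4 included, of which 33 were members. Leaving out 1 library gave 27 to 51. The median smallest ratio of the members was 3.93 on TMM-scaled CPM against 5.05. In uninjured *yap1* Crispants against WT the count of called members was 4 with DESeq2 and 0 with only the 2 groups fitted, and 0 to 4 without 1 library. In uninjured *wwtr1* Crispants it was 1 with DESeq2 and 0 in every other alternative. For both injured comparisons it was 0 in all alternatives. With the replicate number as a block these 4 counts were 1, 0, 0 and 0. Samples of the same number did not deviate together throughout, with correlations from -0.22 to 0.41, so the numbers were not taken to pair the samples. The value of 0.41 was that of replicate 1 in injured *yap1* and injured WT. Injured replicate 1 had the highest summed member CPM in WT (9288), *yap1* (7889) and *wwtr1* Crispants (7754). It also had the lowest epidermal marker sum of each injured group (70610, 63131 and 73019 CPM). The reason for this shared shift was not tested. Without 1 uninjured library, 26 to 30 members were called in injured *yap1* replicate 4, and 28 without a low-count filter. Of 701 values over 54 gene results, 667 kept their side of the threshold, 19 lost a call, 15 gained one and 0 turned direction. The count of members without overlap between states, 36, was 35 on TMM-scaled CPM and 36 or 37 without 1 library, both chosen after seeing the data. With 3 or 4 pooled libraries a group, differences within the spread of the pools were not detectable.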
